A study of Mus musculus with 8 samples.

Results

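The genes described here encode the subunits of AMPK, the AMP-activated protein kinase: Prkaa1 and Prkaa2 (α1 and α2), Prkab1 and Prkab2 (β1 and β2), and Prkag1, Prkag2 and Prkag3 (γ1, γ2 and γ3). They were chosen by symbol, and all 7 were found among the 56884 genes of the deposited count table. Bulk mRNA sequencing was done on Lacun3 cells, a lung adenocarcinoma line of the mouse. The STK11 KO group held 4 libraries of Lacun3 cells in which Stk11 had been disrupted with CRISPR, and the STK11 WT group held 4 libraries of the parental line. Both were grown in the same serum-containing medium without treatment, and the submitters call the 4 libraries of each genotype independent biological replicates. The labels name a single edited line and do not say whether it is a clone or a pool, so each comparison is between 2 cell lines, and p-values measure the spread between cultures.

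AMPK is an energy sensor built from a catalytic α, a scaffolding β and a nucleotide-binding γ subunit. When AMP or ADP rises, binding to γ favours phosphorylation of the activation loop of α by LKB1, the kinase that Stk11 encodes; the kinase CaMKK2 can phosphorylate the same site in response to calcium. The β subunit carries a lipid anchor and a module that binds glycogen. Each subunit class has isoforms from separate genes, of which α2, β2 and above all γ3 are known for high expression in skeletal muscle. The comparison asks which subunit mRNAs change in tumour cells when their main upstream kinase is disrupted; protein and kinase activity were not measured.

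Libraries held 21441601 to 25715008 counts in the STK11 KO group and 18837263 to 21101904 in the STK11 WT group, and a single count came to 0.0388 to 0.0515 CPM (a gene's count relative to the total of its library, scaled between libraries by TMM, edgeR's trimmed mean method). Stk11 mRNA, which checks the labels, was 34.7 ± 0.853 CPM in STK11 KO and 66.3 ± 1.79 CPM in STK11 WT libraries (SD, n = 4 each), lower in all 4. The epithelial markers Epcam, Cdh1, Krt8, Krt18 and Krt7 summed to 4607 to 5335 CPM in STK11 KO and 6380 to 6763 CPM in STK11 WT libraries. Krt7 averaged 317 CPM in STK11 KO and 1181 CPM in STK11 WT libraries, and Krt18 1650 and 2317 CPM. Krt8 (2720 and 2963 CPM), Epcam (22.3 and 27.3 CPM) and Cdh1 (153 and 151 CPM) differed by smaller ratios. Of 4 alveolar and lung lineage markers, Sftpc, Sftpb and Nkx2-1 had at most 1 count in either group, and Napsa was detected at a low level, with 1.07 ± 0.49 CPM in STK11 KO and 1.32 ± 0.469 CPM in STK11 WT libraries (SD, n = 4 each). Leukocyte markers summed to 0.0471 to 0.463 CPM in STK11 KO and 0.183 to 0.515 CPM in STK11 WT libraries, with Ptprc at 0 counts in STK11 KO and 1 in STK11 WT. Endothelial markers, mostly Cdh5, summed to 3.42 to 4.81 CPM in STK11 KO and 1.05 to 1.81 CPM in STK11 WT libraries, and fibroblast markers to 2.03 to 2.97 CPM in STK11 KO and 2.99 to 4.72 CPM in STK11 WT libraries, with Kdr and Col1a2 at 0 counts. STK11 KO replicate 3 stood apart from the other libraries of its group, with a chi-square per degree of freedom of 13.0 to 18.9 in every pair against 4.52 to 8.90 in the pairs without it.

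The AMPK subunit genes did not move as a block. Messages for β2 and γ1 were higher and the message for γ2 was lower in the knockout line, β1 was slightly higher, and the α messages did not pass the test. Of the 6 members with enough counts to be tested, 3 rose and 1 fell at an adjusted p under 0.05 (edgeR quasi-likelihood test, Benjamini-Hochberg over 13707 genes); with no scaling beyond library size, 2 of them rose and 2 fell. That is 66.7% of the tested members, near the 68.0% of all tested genes that passed, of which 34.4% were higher and 33.6% lower in STK11 KO. The count of changed members therefore did not set the AMPK genes apart from other genes. The CPM ranges of the genotypes did not overlap for Prkab1, Prkab2, Prkag1 and Prkag2, where 60.6% of all tested genes had ranges that did not overlap. The median log2 fold change of the 6 tested members was 0.07, against 0.01 over all tested genes. In bulk RNA a change in the share of cells and a change in RNA per cell cannot be told apart.

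**Figure D1:**
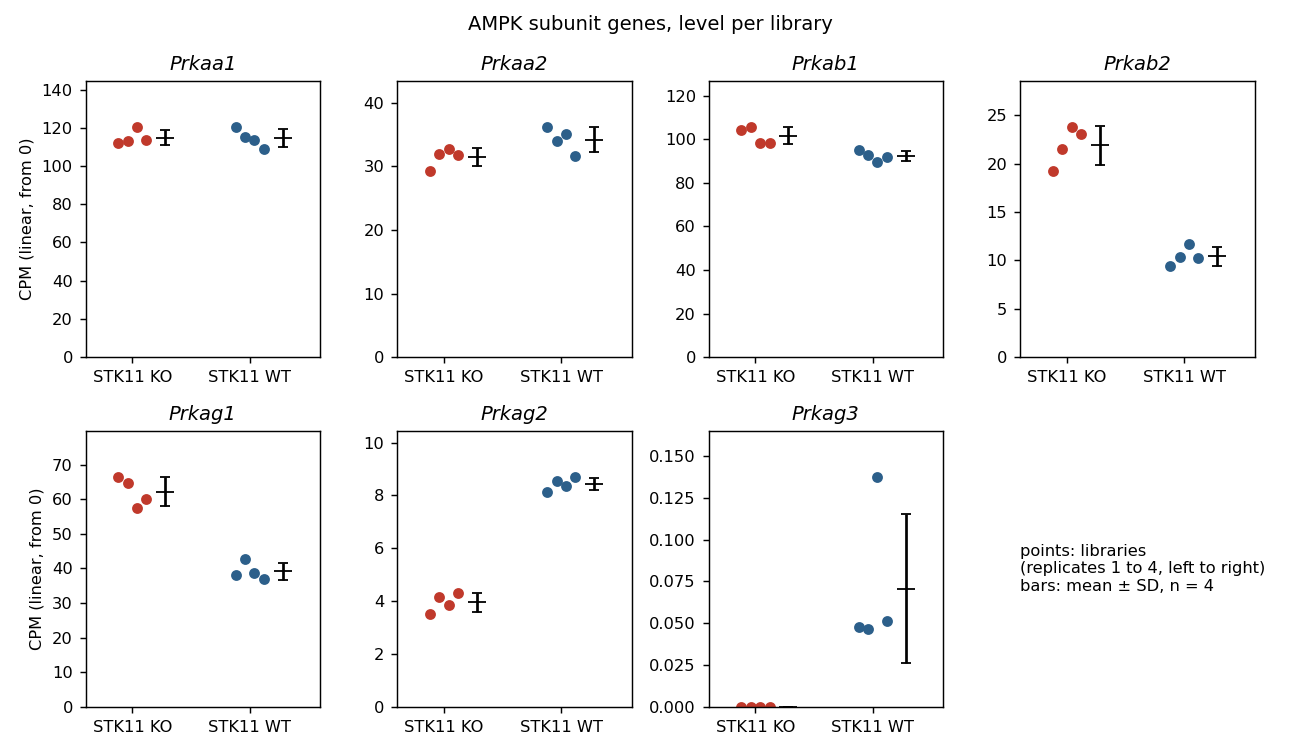
Level of each AMPK subunit gene in CPM (vertical axes, linear and starting at 0, each with its own scale) in 4 STK11 KO and 4 STK11 WT libraries; points are libraries and bars the mean ± SD. The groups are apart for Prkab1, Prkab2, Prkag1 and Prkag2 and overlap for Prkaa1 and Prkaa2; Prkag3 is near 0 throughout.

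The α subunits carry the kinase domain. Prkaa1 (ENSMUSG00000050697.10; GRCm39 chromosome 15, 5173343 to 5211380, plus strand), which encodes the α1 isoform found in most tissues, had 112, 113, 120 and 114 CPM in STK11 KO libraries, against 120, 115, 113 and 109 CPM in STK11 WT libraries. The groups overlapped almost completely. Its fitted log2 fold change was 0.00 ± 0.05 (SE; edgeR adjusted p = 0.945) with a 95% interval of -0.10 to 0.11, so a change beyond 1.08-fold in either direction lies outside the interval. Without STK11 KO replicate 3, the highest knockout library, the log2 fold change was -0.02.

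Prkaa2 (ENSMUSG00000028518.9; GRCm39 chromosome 4, 104887071 to 104967087, minus strand) encodes α2, the isoform of muscle and heart. It had 29.3, 32.0, 32.7 and 31.8 CPM in STK11 KO libraries, against 36.2, 34.0, 35.1 and 31.6 CPM in STK11 WT libraries. The groups overlapped through STK11 WT replicate 4, the lowest of its group. The log2 fold change of -0.12 ± 0.07 (SE) did not pass (edgeR adjusted p = 0.122; 95% interval -0.26 to 0.02). Scaled by library size alone, it was -0.20 and passed (adjusted p = 0.0178); the same scaling moved the median of all genes to -0.07.

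The β subunits hold the complex together. Prkab1 (ENSMUSG00000029513.15; GRCm39 chromosome 5, 116151645 to 116162567, minus strand), encoding β1, had 104, 106, 98 and 98.3 CPM in STK11 KO libraries, against 95.1, 92.9, 89.7 and 91.6 CPM in STK11 WT libraries. Every knockout library lay above every parental one, by a small margin. The log2 fold change was 0.14 ± 0.05 (SE; edgeR adjusted p = 0.0243). This call was the least secure of the set: the adjusted p was 0.375 scaled by library size alone, 0.0645 with no filter on low counts, 0.0602 without STK11 KO replicate 2, 0.0707 without STK11 WT replicate 3 and 0.0598 without STK11 WT replicate 4.

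Prkab2 (ENSMUSG00000038205.13; GRCm39 chromosome 3, 97565509 to 97581128, plus strand), encoding β2, had 19.2, 21.5, 23.8 and 23.1 CPM in STK11 KO libraries, against 9.38, 10.3, 11.7 and 10.3 CPM in STK11 WT libraries. The lowest knockout library was well above the highest parental one. The gene rose 2.10-fold, a log2 fold change of 1.07 ± 0.09 (SE; edgeR adjusted p = 7.8e-10), larger in absolute size than in 85.3% of tested genes. Without STK11 KO replicate 3, its highest library, the log2 fold change was 1.03.

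The γ subunits bind AMP, ADP and ATP. Prkag1 (ENSMUSG00000067713.8; GRCm39 chromosome 15, 98710678 to 98729402, minus strand), encoding the widely expressed γ1, had 66.5, 64.7, 57.4 and 60.01 CPM in STK11 KO libraries, against 38.2, 42.8, 38.7 and 37.0 CPM in STK11 WT libraries. The groups were clearly apart, with STK11 KO replicate 3 the lowest of the knockout values. The gene rose 1.58-fold (log2 fold change 0.66 ± 0.07, SE; edgeR adjusted p = 6.29e-09), and by 0.70 on the log2 scale without that library.

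Prkag2 (ENSMUSG00000028944.15; GRCm39 chromosome 5, 25067742 to 25305640, minus strand) encodes γ2, the isoform whose human mutations cause a heart muscle disease with glycogen storage. It had 3.52, 4.15, 3.85 and 4.31 CPM in STK11 KO libraries, against 8.14, 8.53, 8.35 and 8.71 CPM in STK11 WT libraries. Each knockout library was near 47.0% of the parental level, the fitted ratio. The log2 fold change was -1.09 ± 0.12 (SE; edgeR adjusted p = 2.72e-08). These values rest on 71 to 99 counts per STK11 KO library and 169 to 184 per STK11 WT library, so that counting alone gives an error of 11.9% at the lowest count.

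Prkag3 (ENSMUSG00000006542.14; GRCm39 chromosome 1, 74778081 to 74788380, minus strand), encoding the muscle isoform γ3, was hardly detected. It had 0 counts in all 4 STK11 KO libraries, against 1, 1, 3 and 1 counts in STK11 WT libraries. It did not pass the filter on low counts. A count of 0 over the 4 STK11 KO libraries allows a level of up to 0.0338 CPM (3 counts, counting error only), and the 6 counts of the STK11 WT libraries came to 0.0716 CPM. Fitted with no filter, it had an edgeR adjusted p of 0.0512.

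**Figure D2:**
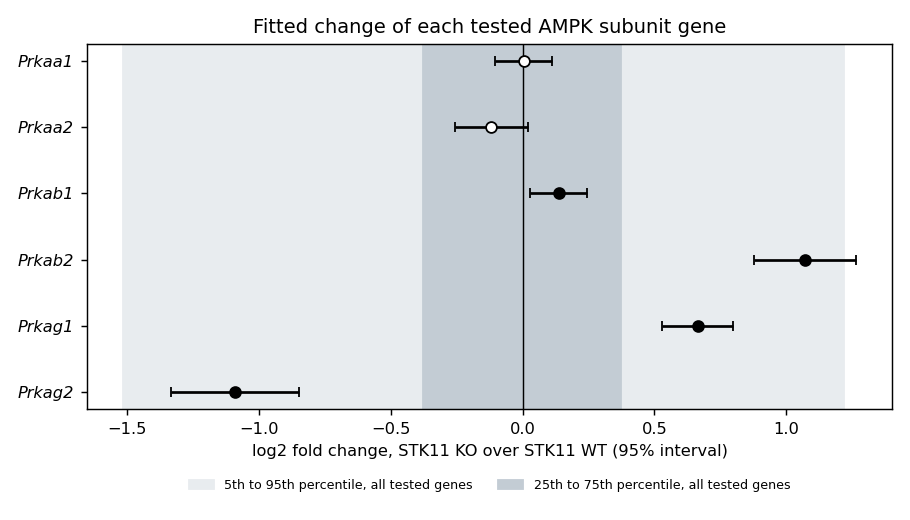
Fitted log2 fold change of STK11 KO over STK11 WT (horizontal axis) for the 6 tested AMPK subunit genes, with 95% intervals; filled points passed the edgeR test, and shading shows the central ranges of all 13707 tested genes. Prkab2 at 1.07 and Prkag2 at -1.09 lie outside the 25th to 75th percentile range of -0.38 to 0.37 and inside the 5th to 95th percentile range of -1.52 to 1.22.

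The second deposited table, of log2 CPM values in voom's form, gave the same picture when tested with limma: log2 fold changes were 1.07 for Prkab2, 0.67 for Prkag1, -1.09 for Prkag2 and 0.14 for Prkab1. Some members lie over lncRNA genes on the opposite strand, and whether reads were counted by strand is not stated in the labels or file headers. Of the 51-base stretches of Prkag1 transcripts, 28.4% also occur, on either strand, in B130046B21Rik, which had 60 counts in all STK11 KO and 65 in all STK11 WT libraries together. For Prkag2 11.5% are shared, mainly with Prkag2os2, which had 39 counts in STK11 KO and 22 in STK11 WT libraries. The part of these overlaps in the changes of Prkag1 and Prkag2 was not tested. Prkaa1, Prkaa2, Prkab1 and Prkab2 shared no such stretch with another gene.

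Isoforms of a class compete for the same place in the complex, so their ratio was compared within each library, where scaling between libraries cancels. The balance moved towards β2 among the β genes, away from γ2 among the γ genes, and very little among the α genes. Levels between genes are given as CPM per kb of exon, so shares and ratios depend on the length used. The difference of a log2 ratio between genotypes does not. As a share of reads, without length, Prkab2 averaged 17.8% of its class in STK11 KO and 10.2% in STK11 WT libraries. Prkag2 averaged 6.01% in STK11 KO and 17.7% in STK11 WT libraries, and Prkaa2 21.5% and 23.0%. Prkab2 made up 9.98, 10.9, 12.7 and 12.4% of the β class level in STK11 KO libraries, against 5.60, 6.27, 7.30 and 6.31% in STK11 WT libraries. The β2 share was higher in each knockout library than in any parental one, and β1 stayed the main β message in all 8 libraries. The log2 ratio of Prkab2 to Prkab1 was -2.95 ± 0.18 in STK11 KO and -3.88 ± 0.17 in STK11 WT libraries (SD, n = 4 each), a difference of 0.93 or 1.91-fold.

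Prkag2 made up 1.74, 2.11, 2.20 and 2.35% of the γ class level in STK11 KO libraries, against 6.67, 6.27, 6.74 and 7.32% in STK11 WT libraries. With Prkag1 up and Prkag2 down, the γ class had the largest shift in isoform balance of the 3 classes. The log2 ratio of Prkag2 to Prkag1 was -5.55 ± 0.19 in STK11 KO and -3.79 ± 0.10 in STK11 WT libraries (SD, n = 4 each), a 3.39-fold lower ratio in STK11 KO. Prkaa2 made up 13.3, 14.2, 13.7 and 14.1% of the α class level in STK11 KO libraries, against 15.0, 14.7, 15.3 and 14.5% in STK11 WT libraries. The groups did not overlap, although neither α gene passed on its own; the log2 ratio of Prkaa2 to Prkaa1 was lower by 0.12, or 1.09-fold. Each of these 3 ratios gave an exact permutation p of 0.0286 (two-sided, n = 4 per group), the smallest that 70 assignments allow. For Prkab2 to Prkab1 and Prkag2 to Prkag1 the separation follows from the CPM of the single genes given above. There the permutation test adds no separate evidence. The adjusted permutation p was 0.0327 over the 8 comparisons computed, which include the class sums and class ratios below. These pairs come from members chosen with earlier results known. Among single genes, 60.6% of those tested had CPM ranges that did not overlap. The share for ratios of other gene pairs was not computed, so these separations cannot be called particular to AMPK genes.

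**Figure D3:**
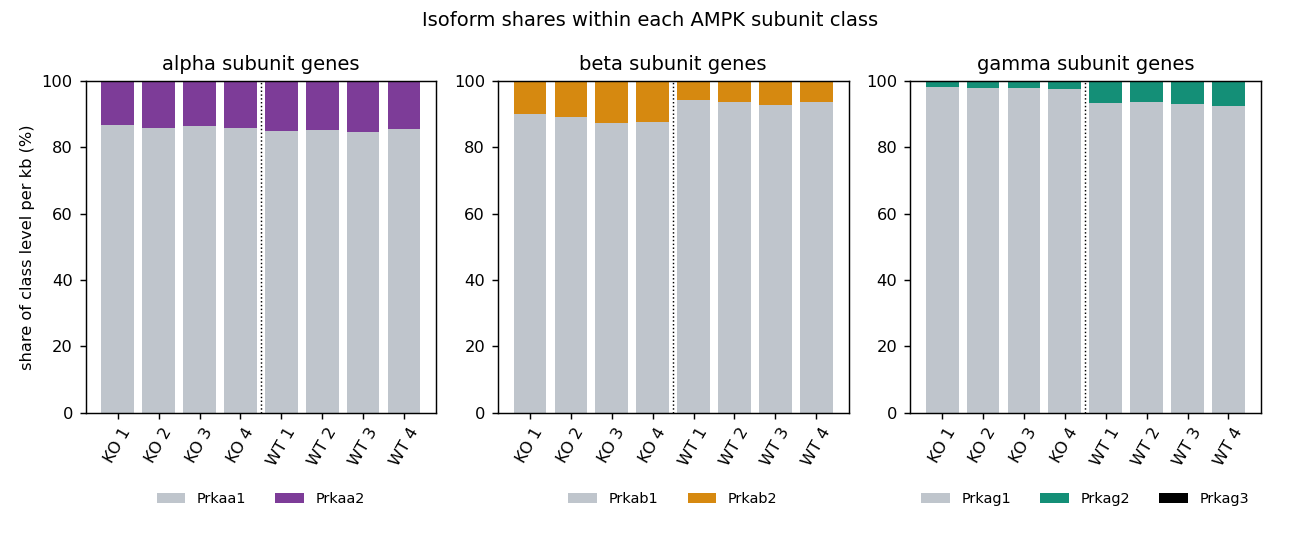
Share of each isoform in the summed level per kb of its AMPK subunit class (vertical axis, percent) in every library, with STK11 KO libraries left of the dotted line and STK11 WT libraries right of it. The β2 share is 9.98 to 12.7% in STK11 KO and 5.60 to 7.30% in STK11 WT libraries, and the γ2 share is 1.74 to 2.35% in STK11 KO and 6.27 to 7.32% in STK11 WT libraries.

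Per kb of exon, the order of the 7 levels differed between the lines in the place of γ1 and β2. In mean CPM, without length, the order was the same in both lines: Prkaa1, Prkab1, Prkag1, Prkaa2, Prkab2, Prkag2 and Prkag3. In STK11 KO libraries the order per kb was Prkab1 (33.1 ± 1.28 CPM per kb; SD, n = 4), Prkag1 (28.6 ± 1.91), Prkaa1 (24.7 ± 0.815), Prkab2 (4.30 ± 0.396), Prkaa2 (3.95 ± 0.187), Prkag2 (0.610 ± 0.0538) and Prkag3. In STK11 WT libraries it was Prkab1 (30.1 ± 0.745), Prkaa1 (24.6 ± 1.02), Prkag1 (18 ± 1.16), Prkaa2 (4.29 ± 0.248), Prkab2 (2.05 ± 0.191), Prkag2 (1.30 ± 0.0372) and Prkag3. Prkab2 and Prkaa2 overlapped in STK11 KO libraries, and no other neighbours did in either line. With the longest annotated transcript as the length, Prkaa1 (24.6 ± 1.02 CPM per kb) and Prkag1 (23.7 ± 1.52) overlapped in STK11 WT libraries, and Prkag2 (2.53 ± 0.0724) lay above Prkab2 (2.08 ± 0.195) there.

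Since a complex takes a single subunit of each class, the class sums were set side by side. Summed γ mRNA was higher in every knockout library, summed β mRNA was higher by less, and the α sums overlapped. The γ class summed to 31.1, 30.4, 27.0 and 28.3 CPM per kb in STK11 KO libraries, against 18.8, 21, 19.1 and 18.4 in STK11 WT libraries. The β class summed to 37.8, 38.6, 36.6 and 36.6 CPM per kb in STK11 KO libraries, against 32.9, 32.3, 31.5 and 31.9 in STK11 WT libraries. The groups did not overlap in either class. The α class summed to 28.6 ± 0.957 CPM per kb in STK11 KO and 28.9 ± 1.24 in STK11 WT libraries (SD, n = 4 each), with overlapping groups. The γ to α ratio was 1.02 ± 0.0964 in STK11 KO and 0.67 ± 0.0422 in STK11 WT libraries (SD, n = 4 each). The β to α ratio was 1.31 ± 0.0676 in STK11 KO and 1.11 ± 0.0369 in STK11 WT libraries (SD, n = 4 each). The size of these sums and ratios depends on the gene length used, so it does not give proportions of subunits. On the log2 scale the γ to α ratio was higher in STK11 KO by 0.61 per kb of exon. With the longest transcript this difference was 0.58, and without length 0.49. For the β to α ratio the differences were 0.23, 0.21 and 0.29. No test is given for these sums, which add up genes chosen with their values known.

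**Figure D4:**
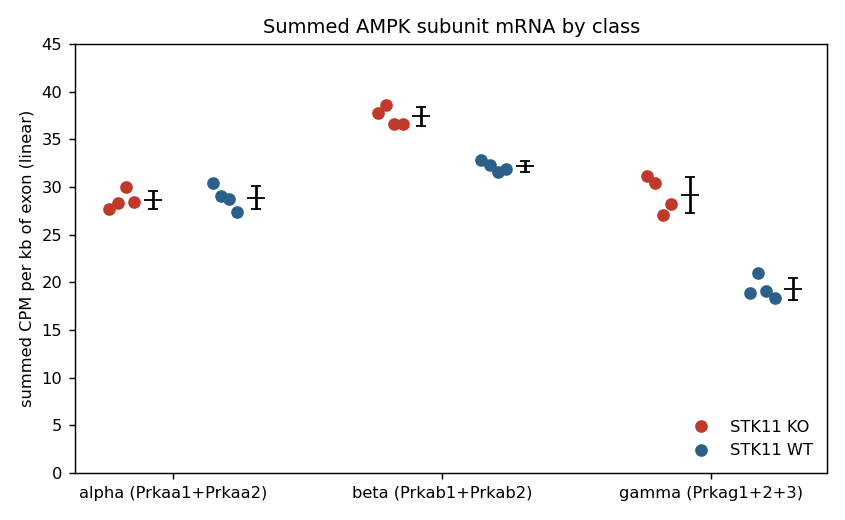
Summed level of the α, β and γ AMPK subunit genes in CPM per kb of exon (vertical axis, linear and starting at 0); points are libraries, bars the mean ± SD of 4. The γ sums lie at 27.0 to 31.1 in STK11 KO and 18.4 to 21 in STK11 WT libraries, while the α sums overlap.

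Promoters of the 2 genes with the largest rises are shown because the rises were unequal among isoforms. All 7 members matched RefSeq's promoter table (GRCm38.p6; 250 bases before to 50 after each start), with 9 starts, 3 of them for Prkag2; counts per gene do not say which start was used. Motifs were searched on both strands, and capitals mark the GC box GGGCGG, bound by SP1-type factors, and TGACG, the core of the element bound by CREB.
Prkab2 promoter, chr3:97657962-97658261, plus strand: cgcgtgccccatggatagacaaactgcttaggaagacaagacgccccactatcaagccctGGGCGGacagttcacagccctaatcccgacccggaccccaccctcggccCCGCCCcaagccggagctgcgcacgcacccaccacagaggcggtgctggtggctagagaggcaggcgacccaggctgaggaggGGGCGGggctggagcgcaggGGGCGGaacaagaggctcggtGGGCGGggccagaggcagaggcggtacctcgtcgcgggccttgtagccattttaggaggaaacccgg
Prkag1 promoter, chr15:98831459-98831758, minus strand: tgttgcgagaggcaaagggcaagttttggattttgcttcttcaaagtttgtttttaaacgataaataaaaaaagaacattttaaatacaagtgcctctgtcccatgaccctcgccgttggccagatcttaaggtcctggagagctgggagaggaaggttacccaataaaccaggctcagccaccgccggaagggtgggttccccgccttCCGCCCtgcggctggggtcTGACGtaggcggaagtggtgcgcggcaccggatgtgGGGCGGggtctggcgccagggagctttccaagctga

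The Prkab2 window held 5 GC boxes and the Prkag1 window held 2, a motif present in 35.7% of the 32851 promoters of the table. Prkaa1, whose mRNA did not pass the test, also held 5. TGACG was present in 20.8% of all promoters; among the 9 member windows it occurred in Prkag1, with its first base at -22 from the start, and in Prkaa2, with its first base at -196. The full CREB element TGACGTCA, found in 1.79% of promoters, and the E-box CACGTG, found in 7.15%, occurred in no member window. The CCAAT box, found in 37.4% of promoters, occurred in the Prkag1 window and also in windows of Prkag2, whose mRNA fell. GC content was 68.0% in the Prkab2 window and 54.7% in the Prkag1 window, against a median of 52.7% over all promoters. Across the 9 member windows it ranged from 50.3% at a Prkag2 start to 82.0% for Prkaa1, whose mRNA did not pass.

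Prkag2 and Prkab2 had log2 fold changes of -1.09 and 1.07, in absolute size within their errors of each other. Prkag2 was the larger as reported, and Prkab2 was the larger without STK11 KO replicate 1 (1.13 against -1.04) or STK11 WT replicate 3 (1.13 against -1.10), so the choice of Prkag2 for a search of similar profiles rests on a narrow margin. The tested genes with the profile most similar to that of Prkag2, by root mean square difference of centred log2 CPM over the 8 libraries, were Pus7 (0.0665), Tigit (0.0670) and Ppp1r2 (0.0673). Pus7, a pseudouridine synthase, averaged 43.9 CPM in STK11 KO and 94.9 CPM in STK11 WT libraries. Tigit, known as an immune receptor of lymphocytes, averaged 15.5 CPM in STK11 KO and 35.4 CPM in STK11 WT libraries. Ppp1r2, an inhibitor of protein phosphatase 1, averaged 52.8 CPM in STK11 KO and 106 CPM in STK11 WT libraries.

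Genes that act on AMPK changed in both directions. Of 17 tested kinases, phosphatases and other regulators 6 rose, 8 fell and 3 did not pass. The falls include the targeted gene, Stk11. The median log2 fold change of the 17 was -0.17. Of all tested genes, 34.4% rose and 33.6% fell. With library size as the only scaling, 3 of the 17 regulators rose and 8 fell. Beside Stk11 (log2 fold change -0.93 ± 0.06, SE), the other fall named by the rule was that of Flcn, folliculin, a tumour suppressor that binds AMPK through its partners, at 17.5 ± 0.985 CPM in STK11 KO and 33.8 ± 2.11 CPM in STK11 WT libraries (SD, n = 4 each; edgeR adjusted p = 1.29e-10). Cab39, the scaffold protein MO25α of the LKB1 complex, rose 1.28-fold and Ppp2ca, a catalytic subunit of protein phosphatase 2A, rose 1.27-fold (edgeR adjusted p = 1.52e-06 and 5.29e-06). Genes for the alternative upstream kinases, named after their values were seen, fell: Camkk2 was 14.7 ± 2.61 CPM in STK11 KO and 21.2 ± 0.943 CPM in STK11 WT libraries (SD, n = 4 each; edgeR adjusted p = 8.87e-05), and Camkk1 fell 4.92-fold at low levels (edgeR adjusted p = 2.73e-09).

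Genes for direct AMPK substrates also went both ways, with 8 of 22 tested members higher, 9 lower and 5 not passing (median log2 fold change -0.12). Among all tested genes 34.4% were higher and 33.6% lower in STK11 KO. Gys1, muscle-type glycogen synthase, was 344 ± 30.1 CPM in STK11 KO and 104 ± 5.66 CPM in STK11 WT libraries (SD, n = 4 each). Gfpt1, the entry enzyme of the hexosamine pathway, rose 2.38-fold (edgeR adjusted p = 1.09e-10). Tsc2, which restrains mTORC1, fell 1.52-fold and Tbc1d4, a regulator of glucose transporter traffic, fell 1.66-fold (edgeR adjusted p = 2.67e-09 and 3.26e-08). Acaca and Acacb, the acetyl-CoA carboxylases that are the classical AMPK substrates and are named after their values were seen, fell 1.31-fold and 1.54-fold (edgeR adjusted p = 1.04e-05 and 2.87e-06).

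Adenylate kinases and AMP deaminases make or use AMP, which γ binds, although some isoforms act in the mitochondrial matrix or the nucleus. Nucleotide levels are not part of these data. Of 8 tested members 5 fell, 2 rose and 1 did not pass (median log2 fold change -0.45). Of all tested genes, 33.6% fell and 34.4% rose. With library size as the only scaling, 6 of the 8 members fell and 1 rose. Ak3, the GTP-using enzyme of the mitochondrial matrix, was 33.0 ± 1.46 CPM in STK11 KO and 101 ± 3.43 CPM in STK11 WT libraries, and Ak5 was 1.01 ± 0.231 CPM in STK11 KO and 16.2 ± 1.10 CPM in STK11 WT libraries (SD, n = 4 each). Ak4, another matrix isoform, rose 1.68-fold (edgeR adjusted p = 4.11e-10). Ak6, a nuclear isoform, rose 1.17-fold (edgeR adjusted p = 0.0225) with overlapping groups, and lost its call without STK11 KO replicate 2, STK11 KO replicate 4 or STK11 WT replicate 3 (adjusted p up to 0.0837).

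Of the 16 tested glycogen genes, which concern the carbohydrate that β binds, 7 rose, 6 fell and 3 did not pass (median log2 fold change 0.03). Of all tested genes, 34.4% rose and 33.6% fell. Changes of at least 2-fold were seen in 7 of the 16. The smallest of these, that of Phka2 (log2 fold change -1.02), was larger in absolute size than in 83.9% of tested genes. Beside Gys1, Ugp2, which makes UDP-glucose, was 175 ± 10.8 CPM in STK11 KO and 85.7 ± 3.27 CPM in STK11 WT libraries (SD, n = 4 each). Genes of glycogen breakdown went both ways. The brain-type phosphorylase gene Pygb fell 1.95-fold and the phosphorylase kinase gene Phka2 fell 2.02-fold (edgeR adjusted p = 1.99e-11 and 4.05e-07). Other breakdown genes rose, named after their values were seen: the liver-type phosphorylase gene Pygl had 264 counts in all STK11 KO and 5 in all STK11 WT libraries together (edgeR adjusted p = 5.94e-11), and the phosphorylase kinase gene Phkb rose 1.28-fold (edgeR adjusted p = 4.53e-05). The shares of passing members in the 4 lists were 82.4% for regulators, 77.3% for substrates, 87.5% for adenylate kinases and deaminases and 81.3% for glycogen genes, against 68.0% of all tested genes. The lists share members, such as Gys1 in both the substrate and the glycogen list, and the regulators include the targeted gene Stk11. They were also chosen with earlier results known, so the higher shares cannot be called particular to these lists.

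**Figure D5:**
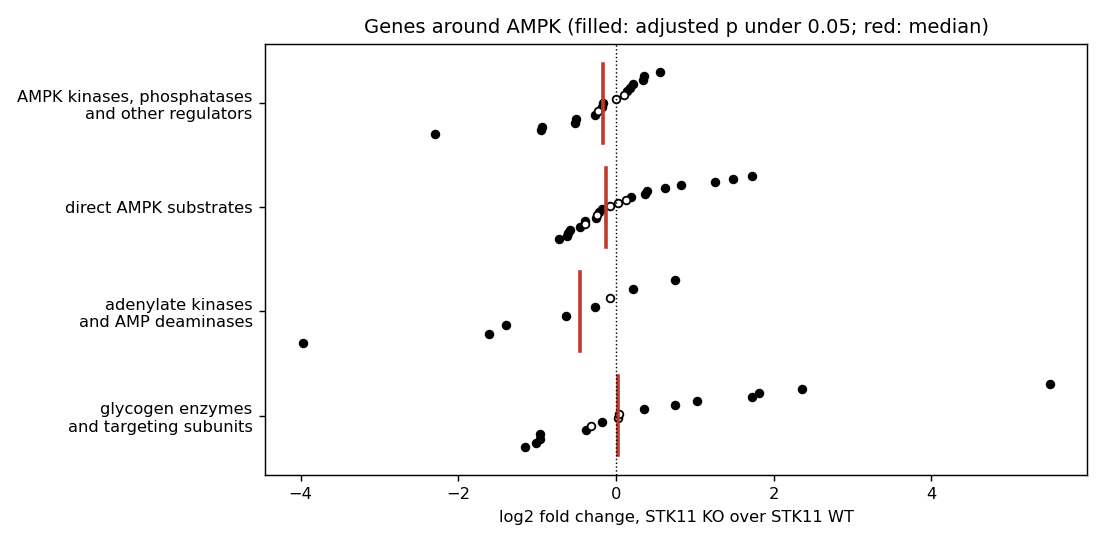
Log2 fold change of STK11 KO over STK11 WT (horizontal axis) for each tested gene of 4 lists around AMPK; filled points passed the edgeR test at an adjusted p under 0.05, and red lines are list medians. Points lie on both sides of 0 in every list, with medians of -0.17, -0.12, -0.45 and 0.03 from top to bottom.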

How the data were processed

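RNA of untreated Lacun3 cultures was made into stranded mRNA libraries from 100 ng and sequenced as pairs of 51 bp, per the labels' protocols. The authors deposited raw counts per gene and, for 15726 genes, log2 CPM in voom's form. Per the submitters' processing notes, FastQC 0.11.8, STAR 2.7.9a, featureCounts 1.6.0, edgeR, limma and GRCm39 were used; they do not give the strand setting.

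Raw counts of all 8 libraries were tested with edgeR 4.0.16 (filterByExpr, TMM, robust quasi-likelihood, genotype as the only term), with Benjamini-Hochberg adjustment over 13707 genes and a threshold of 0.05. Standard errors are the absolute log2 fold change over the square root of F. Isoform ratios were compared by exact permutation (scipy 1.17.1). The count table gives no gene length, so lengths are exon unions of the same gene IDs in GENCODE M21, which is of another build. They cancel in the difference of an isoform log2 ratio between genotypes, but not in the ratios, shares or sums themselves. On simulated data for this comparison (13707 genes), 97.0% of 67 genes changed 2-fold were recovered and 7.84% of calls were false. Of 67 genes changed 1.5-fold, the smallest change simulated, 85.1% were recovered. Far fewer genes were changed in the simulation than passed in the data, so these rates need not hold here.

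The members and lists were chosen with earlier results of these data known. Text names all members, Stk11, the up to 2 rises and 2 falls per list with the smallest adjusted p, and the 3 genes nearest the most changed member; others are said to be chosen after their values were seen. Gyg1 of the glycogen list was matched as Gyg, and 2 substrate, 4 adenylate kinase or deaminase and 5 glycogen genes had too few counts to be tested. Alternatives were other scalings and filters, DESeq2 1.42.0, limma 3.58.1 (voom, and on the deposited values), the replicate block, other lengths, 0.5 added counts and leaving out each library; the longest-transcript length was chosen after seeing the data. The computations used R 4.3.3 and Python 3.11.15.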

Additional observations from a re-analysis of the deposited data

Results flagged for a closer look

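Of 30 sets of 4 library values examined (the 7 members and 8 ratios and sums in each genotype), 1 held a library set apart from the others of its group, where chance gives about 1 in 20. It was Prkag3 in STK11 WT replicate 3, at 0.138 CPM. That value is 3 counts, against 1 count in each of the other STK11 WT libraries and 0 in every STK11 KO library.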

How the results depend on the processing

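The changes of Prkab2, Prkag1 and Prkag2 kept their direction and passed in all 17 alternatives run, with log2 fold changes of 0.99 to 1.13, 0.58 to 0.71 and -1.17 to -1.04. Prkaa1 never passed, and its fitted log2 fold change, 0.0045 as reported, was negative with DESeq2's size factors (-0.0029), upper quartile scaling (-0.0085), library size alone (-0.078), at least 1 CPM in 4 libraries (-0.00056), and DESeq2 (-0.0028); without 1 library at a time it ranged from -0.019 to 0.028, and was also negative without STK11 WT replicate 3 (-0.0014), STK11 WT replicate 4 (-0.019) or STK11 KO replicate 3 (-0.018). Library size alone gave 2 members that fell, 3 regulators and 1 adenylate kinase gene that rose, and log2 class differences of -0.10 for α and 0.13 for β; limma on the deposited values also gave 1 adenylate kinase gene that rose. Without dividing by length the class differences were 0.26 for β and 0.47 for γ, against 0.22 and 0.59. Leaving out 1 library at a time gave 1 to 2 adenylate kinase genes that rose, and differences of -0.14 to -0.10 for the Prkaa2 to Prkaa1 log2 ratio, 0.87 to 1.01 for Prkab2 to Prkab1 and -1.82 to -1.67 for Prkag2 to Prkag1. The adjusted p of each ratio was then 0.0653, since 3 against 4 libraries cannot give less. Replicate numbers did not pair the libraries: the correlations of deviations between same-numbered libraries were 0.036, 0.0051, -0.098 and 0.0042, and not every library correlated best with its own number. With a replicate block, 4633 genes rose and 4549 fell, against 4721 and 4601, and the same numbers of members rose (3) and fell (1). Depth limits Prkag3, with 6 counts in all, and to a lesser degree Prkag2.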
